A study of Mus musculus with 6 samples.

Results

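Glypicans and syndecans are the membrane families of heparan sulfate proteoglycans, and their 10 mouse genes (Gpc1 to Gpc6 and Sdc1 to Sdc4) were followed on 6 expression arrays of the developing joint. The members were the non-control probes whose gene name in the scanner files was one of the 10 symbols. These genes had 13 probes among the 55672 with a value on every array, 9 probes for the glypicans and 4 for the syndecans. The intermediate and the outer interzone were sampled from mouse embryos at gestation day 15.5, 3 samples per layer, with 1 embryo per replicate. An interzone is the strip of dense mesenchyme where a synovial joint will form, with outer layers against the cartilage and an intermediate layer between them. Both groups share the stage and the tissue label, no treatment is named, and strain, genotype and the way the layers were separated are not given in the sources used here. Total RNA of cell lysates was amplified with a kit for low input and hybridised in 1 colour (Cy3).

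A glypican is a globular core protein held to the outer membrane leaflet by a lipid (GPI) anchor, with heparan sulfate chains close to the membrane. A syndecan spans the membrane, carries its chains near the outer tip and ends in a short cytoplasmic tail that binds signalling and scaffold proteins. The chains bind hedgehog, Wnt, FGF and BMP proteins and matrix proteins, and so shape the range and strength of these signals in growing cartilage and at the joint.

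The 75th percentile of the processed signal lay between 47.4 and 344 on the 6 arrays, with the outer replicate 1 array the dimmest, and 35.6% to 53.4% of spots were well above background. Each level below is a log2 signal relative to its array's 75th percentile, and each difference is outer minus intermediate. The interzone growth factor gene Gdf5 was bright in both layers, at 5.69 ± 1.07 (SD, n = 3) on the outer and 5.69 ± 0.89 on the intermediate arrays. Some marker lists of neighbouring cell types separated the layers, at the limma adjusted p of 0.05 that calls 3.73% of all 18001 gene names. That total includes names without a RefSeq symbol. Of 8 interzone markers, 6 were not called, Gdf5 among them. Erg was called toward the outer layer (0.95, limma adjusted p = 0.0455) and Gdf6 toward the intermediate layer (-1.77, limma adjusted p = 0.0166). Barx1 was higher on the outer arrays without overlap (1.03), short of the threshold (limma adjusted p = 0.0682). The interzone list means overlapped, at 1.82 to 2.63 on the outer and 1.93 to 2.61 on the intermediate arrays. Of 10 cartilage markers, 9 were called, all toward the outer interzone, with list means of 3.84 to 4.22 on the outer and 0.46 to 1.25 on the intermediate arrays. All 10 leukocyte markers had lower outer samples without overlap, and 8 of them were called (list means -1.62 to 0.37 against 2.15 to 2.96), and so were 7 of 8 endothelial markers (-0.23 to 0.45 against 1.88 to 2.27) and 3 of the 4 nerve and Schwann cell markers that could be tested (-2.17 to -2 against -0.02 to 0.63), all lower in the outer interzone. The remaining endothelial marker, Kdr, differed the other way, by 0.82 toward the outer interzone, without passing (limma adjusted p = 0.238). Among the called genes, Adgre1, C1qa, Cx3cr1, Mrc1, Tek, Tie1, Emcn and Nefm were well above background on every array of the intermediate layer only. Matn1 and Snorc were so on every array of the outer layer only. These genes were tested through the layer where they are high, so their calls are not independent of that filter. The list means include their dim values. The means of the perichondrium and bone, muscle, epithelium and erythroid lists overlapped between the layers. In the erythroid list Tfrc was called toward the outer interzone (1.31, limma adjusted p = 0.0328), while its 4 uncalled tested genes had lower outer means. The perichondrium and bone mean rests on Col1a1 and Postn, the 2 of its 8 genes that could be tested. Outer replicate 1 stood below the other outer arrays on the muscle list (-2.59 against 1.04 and 1.15) and the erythroid list (0.30 against 3.62 and 2.95). Intermediate replicate 1 was likewise the lowest of its layer on the muscle list (-0.57 against 1.20 and 2.14) and the erythroid list (2.38 against 4.29 and 4.19). In such bulk samples, fewer cells of a type and less RNA per cell cannot be told apart.

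Of the 10 genes, Gpc6 alone passed the test, with a 2.47-fold higher level in the outer interzone, and the other 9 did not pass in either direction. To be tested, a probe had to be well above background in every sample of the outer layer, or of the intermediate layer, or of both. Of the 13 member probes 11 met this, covering all 10 genes. At a limma adjusted p of 0.05, 1 of the 11 was called, higher in the outer interzone, and 0 were called lower. Over all 23881 tested probes limma called 3.48%, with 1.33% toward the outer and 2.16% toward the intermediate interzone. The values of the layers did not overlap for 4 of the 11 member probes, 3 higher in the outer interzone (Gpc6, Gpc3 and Sdc4) and 1 higher in the intermediate interzone (Sdc2). Over all tested probes, 26.3% did not overlap. The same 4 member probes had an unadjusted limma p under 0.05, against 20.4% of all tested probes. The median difference of the 11 was 0.09, and that of all tested probes was also 0.09, with the middle of the distribution (quartiles) from -0.20 to 0.36. With so few members, counts this close to those of all probes show nothing particular to the families.

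**Figure D1:**
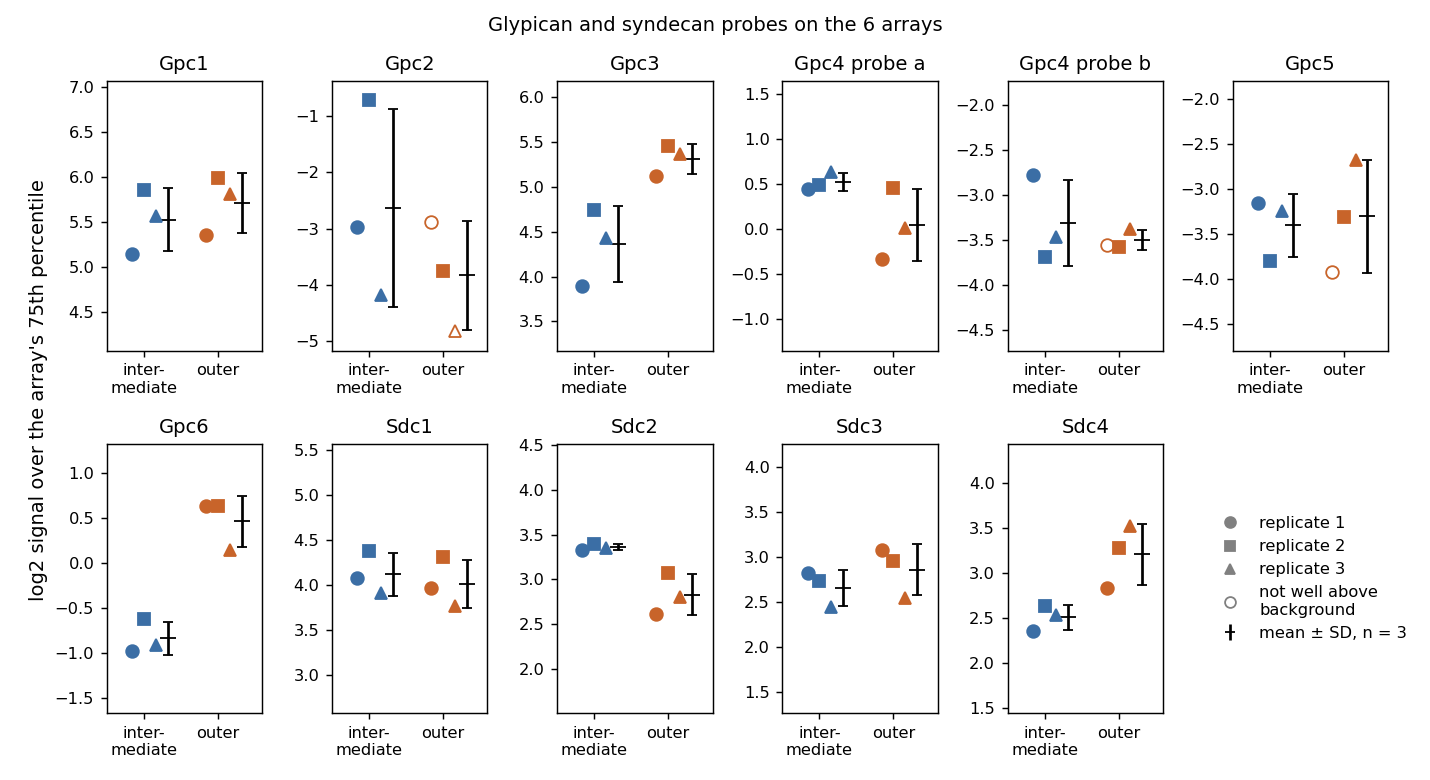
Each panel shows 1 tested probe on the 6 arrays, as log2 signal over the array's 75th percentile, with blue points for the intermediate and orange points for the outer interzone, marker shape for the replicate number and black bars for mean ± SD (n = 3). Gpc4 probe a is the RefSeq probe and probe b the probe designed on a GenBank mRNA, and open markers were not well above background. All panels span the same number of log2 units apart from Gpc2, and the layers are apart for Gpc6, Gpc3 and Sdc4 (outer higher) and Sdc2 (outer lower).

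Gpc6, whose loss in humans causes omodysplasia with short limbs, stood at -0.98, -0.63 and -0.91 in intermediate replicates 1 to 3 and at 0.63, 0.63 and 0.14 on the outer arrays. Every outer value was above every intermediate value, and all 6 arrays measured the probe well above background. The outer mean was 0.46 ± 0.28 (SD, n = 3) and the intermediate mean -0.84 ± 0.18, 1.31 apart with SE 0.21 (95% interval 0.81 to 1.80, limma adjusted p = 0.0249). Same-numbered samples differed by 1.61, 1.26 and 1.05. The call depended on which arrays were kept, more than the difference did. Without intermediate replicate 1, 2 or 3 or without outer replicate 3 the difference was 1.24, 1.41, 1.27 or 1.47. Its limma adjusted p was then 0.0956, 0.053, 0.117 or 0.0594. In those fits limma called 166, 445, 75 and 112 of all tested probes, against 832 with all arrays. Without outer replicate 1 or 2 Gpc6 passed, at 1.22 and 1.23 (limma adjusted p = 0.0487 and 0.0431). With each array scaled to its median the difference was 0.87 (limma adjusted p = 0.0954), and in the authors' deposited table, which is scaled in the same way, it was 0.91 (limma adjusted p = 0.0788). That scaling moved the median of all tested probes from 0.09 to -0.35, and the calls over all probes from 317 toward the outer and 515 toward the intermediate interzone to 175 and 1278. Relative to the median of all tested probes, Gpc6 differed by 1.22. The cartilage markers moved in the same direction as Gpc6, and their part in this result was not tested.

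Gpc6 was read by a single probe at chromosome 14, 118375311 to 118375370 (plus strand, mm9), designed on transcript variant 1. Its second stretch of 30 bases is shown because most of the end of the probe is made of purines, with the longest run of A and G alone in capitals.
Gpc6 probe, bases 31 to 60: aacaagtcaagacAAAAAGAGAGAGAGGAt
This run has 16 bases, and 1.88% of the 23881 tested probes hold a run of purines or of pyrimidines at least as long. The Sdc3 probe, which was not called, holds a longer purine run of 18 bases, a length that 1.21% of tested probes reach. Whether such a run affects the signal was not tested.

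The 3 genes whose profile over the 6 arrays was most like that of Gpc6, among 13324 genes with a RefSeq symbol, were Ece2, Acacb and Wnt5b. The measure was the root mean square difference between profiles centred on their own mean, and it was 0.132, 0.137 and 0.140 on the log2 scale. Ece2, an endothelin-converting enzyme gene, differed by 1.19 (limma adjusted p = 0.026). Acacb, an acetyl-CoA carboxylase gene, also differed by 1.19 without passing (limma adjusted p = 0.0557). Wnt5b, which encodes a Wnt ligand of growing cartilage, differed by 1.38 (limma adjusted p = 0.0181). The 3 genes were picked for their likeness to a called probe. Their differences and p-values follow from that choice and are no separate evidence.

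Gpc3, the glypican whose loss causes the Simpson-Golabi-Behmel overgrowth syndrome and which holds back hedgehog signalling, had the next largest difference toward the outer interzone. Its RefSeq probe (chromosome X, 49625740 to 49625799, minus strand, mm9) stood at 3.90, 4.74 and 4.43 on the intermediate and 5.12, 5.45 and 5.36 on the outer arrays. The layers did not overlap, and the lowest outer sample, replicate 1, comes from the same replicate number as the lowest intermediate sample. The means were 5.31 ± 0.17 (SD, n = 3) and 4.36 ± 0.42, a 1.93-fold difference that did not pass (0.95 with SE 0.25, 95% interval 0.36 to 1.54, limma adjusted p = 0.0957). Same-numbered samples differed by 1.22, 0.71 and 0.92, and blocking on the replicate number Gpc3 passed (limma adjusted p = 0.0419). In that blocked fit limma called 2 member probes, Gpc6 and Gpc3, and 1723 of all tested probes, against 832 without the block. With the block on quantile-normalized values Gpc3 differed by 0.87 and no member probe passed, with 49 of all probes called.

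The other Gpc3 probe was designed on a cDNA clone from embryonic testis and lies 115152 bases away (chromosome X, 49740892 to 49740951, minus strand, mm9). It never rose well above background, at -5.72, -6.61 and -6.81 on the intermediate and -4.01, -6.47 and -5.81 on the outer arrays, so it was not tested. The highest of these is on the dimmest array, where the weakest probe well above background stood at -1.81. Stretches of both probes are shown because they read the same symbol with such unlike results, again with the longest purine or pyrimidine run in capitals.
Gpc3 RefSeq probe, bases 31 to 60: tagtggtaggatagattgTCTTTTTgcaaa
Gpc3 cDNA clone probe, bases 2 to 31: CTCTCagttattgggagtgaactttgcatt
Neither run is long, at 7 and 5 bases, lengths that 58.5% and 95.7% of tested probes reach.

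Gpc4, the neighbour of Gpc3 on chromosome X and a glypican of brain, kidney and adipose tissue, had 2 tested probes that start 460 bases apart. The RefSeq probe (49406560 to 49406619, minus strand, mm9) stood at 0.44, 0.49 and 0.63 on the intermediate and -0.34, 0.45 and 0.01 on the outer arrays. Outer replicate 2 lay within the intermediate range and the other outer samples below it. The outer mean was 0.04 ± 0.40 (SD, n = 3) and the intermediate mean 0.52 ± 0.10, a difference of -0.48 (95% interval -1.03 to 0.07, limma adjusted p = 0.304). The probe designed on a GenBank mRNA (49406100 to 49406159, minus strand, mm9) stood at -2.77, -3.69 and -3.47 on the intermediate and -3.55, -3.58 and -3.38 on the outer arrays, and the layers overlapped. It was not well above background on outer replicate 1. Its difference was -0.19 (95% interval -0.81 to 0.43, limma adjusted p = 0.724), and 0.08 without intermediate replicate 1. Stretches of both probes are shown because the second ends in an unusually long pyrimidine run.
Gpc4 RefSeq probe, bases 15 to 44: CTTTTTaaatgaatggacaacaatgtacag
Gpc4 mRNA probe, bases 31 to 60: ttgggTTTTCTTCCTTTCTTTCTTTCTCTC
The run of C and T in the second has 25 bases, a length that 0.494% of tested probes reach, and that of the first has 6. Its effect on the signal was not tested.

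The remaining glypicans differed by less than their spread or were dim. Gpc1, a broadly expressed glypican and FGF co-receptor (chromosome 1, 94756711 to 94756770, plus strand, mm9), stood at 5.14, 5.85 and 5.56 on the intermediate and 5.35, 5.99 and 5.81 on the outer arrays. The layers overlapped throughout, with replicate 1 lowest in both. The difference was 0.20 (95% interval -0.41 to 0.81, limma adjusted p = 0.71), a direction that turned with scaling to the median (-0.24) and with slide as a block (-0.17). Gpc5, a relative of Gpc3, had a probe near background at chromosome 14, 116923600 to 116923659 (plus strand, mm9), at -3.15, -3.80 and -3.24 on the intermediate and -3.92, -3.31 and -2.67 on the outer arrays. Outer replicate 1, not well above background, was the lowest of the 6, and outer replicate 3 was the highest. The difference was 0.09 (95% interval -0.72 to 0.91, limma adjusted p = 0.905), and it turned negative under each of the other scalings. A second Gpc5 probe, 1154642 bases away, was close to background throughout, at -6.77 to -5.69 on the intermediate and -6.69 to -3.97 on the outer arrays, never well above it, and was not tested.

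Gpc2, also called cerebroglycan and known from the developing nervous system, had the widest spread of the members. Its probe (chromosome 5, 138715328 to 138715387, minus strand, mm9) stood at -2.97, -0.72 and -4.19 on the intermediate and -2.89, -3.76 and -4.83 on the outer arrays. Intermediate replicate 2 was far above the other 5 samples, and only replicate 2 of the outer samples was well above background. The outer mean was -3.83 ± 0.97 (SD, n = 3), the intermediate mean was -2.63 ± 1.76, and the difference of -1.20 had a 95% interval of -3.28 to 0.88 (limma adjusted p = 0.488). Without intermediate replicate 2 the difference was -0.24. The 4 tested nerve and Schwann cell markers had means of 0.39, -0.02 and 0.63 on the intermediate arrays and -2, -2.17 and -2.14 on the outer arrays, and their part in the Gpc2 values was not tested.

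**Figure D2:**
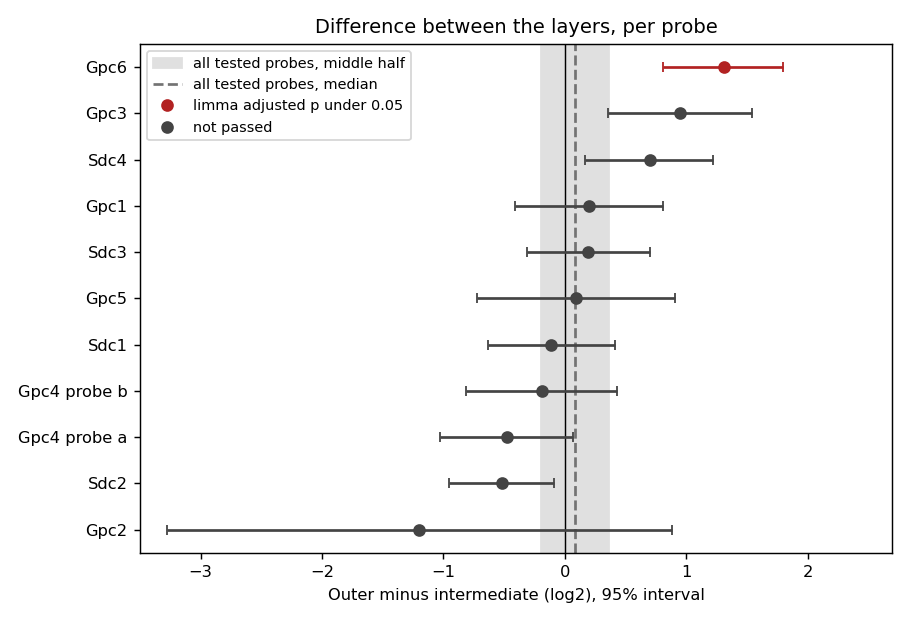
Points are the outer minus intermediate difference of each tested member probe on the log2 scale with its 95% limma interval, with the quartiles (grey band) and the median (dashed line) of all 23881 tested probes. Gpc6, at 1.31, is the probe with an adjusted p under 0.05; the intervals of Gpc3, Sdc4 and Sdc2 also leave out 0 without passing the adjusted test.

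Among the syndecans, Sdc4 and Sdc2 lay on opposite sides of 0, and neither passed. Sdc4, the syndecan of focal adhesions whose tail binds protein kinase C alpha (chromosome 2, 164251211 to 164251270, minus strand, mm9), stood at 2.36, 2.64 and 2.54 on the intermediate and 2.84, 3.28 and 3.52 on the outer arrays. All outer samples were above all intermediate samples. The means were 3.21 ± 0.34 (SD, n = 3) and 2.51 ± 0.14, a 1.62-fold difference (0.70 with SE 0.22, 95% interval 0.17 to 1.22, limma adjusted p = 0.145). Within the slide that held the 3 intermediate arrays and outer replicate 1, it was 0.33, and with each array scaled to its median 0.26.

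Sdc2, a syndecan of mesenchymal cells (chromosome 15, 32964204 to 32964263, plus strand, mm9), stood at 3.33, 3.40 and 3.35 on the intermediate and 2.62, 3.07 and 2.81 on the outer arrays. All outer samples were below the intermediate samples, which lay close together. The means were 2.83 ± 0.23 (SD, n = 3) and 3.36 ± 0.03, a difference of -0.52 with SE 0.18 (95% interval -0.95 to -0.09, limma adjusted p = 0.174). Scaled to the median it was -0.96, still short of the threshold (limma adjusted p = 0.087). The leukocyte markers and the endothelial markers other than Kdr were also lower in the outer interzone, and their part in this difference was not tested.

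Sdc1 and Sdc3 were measured on all 6 arrays and overlapped between the layers. Sdc1, the syndecan of epithelia and plasma cells (chromosome 12, 8799383 to 8799442, plus strand, mm9), stood at 4.08, 4.38 and 3.91 on the intermediate and 3.97, 4.31 and 3.76 on the outer arrays. Replicate 2 was highest and replicate 3 lowest in both layers. The difference was -0.11 (95% interval -0.63 to 0.41, limma adjusted p = 0.82), and 0.02 without intermediate replicate 2 or outer replicate 3. Of 8 epithelial markers 5 could be tested and none passed, with list means of -0.20 to 1.29 on the outer and -1.28 to 0.57 on the intermediate arrays. They were Krt5, Krt8, Krt10, Krt18 and Trp63, whereas Epcam and Cdh1 were never well above background. The part of epithelial cells in the Sdc1 signal was not tested. Sdc3, which binds pleiotrophin and tenascin-C and is known from limb mesenchyme and neurons (chromosome 4, 130382015 to 130382074, plus strand, mm9), stood at 2.82, 2.73 and 2.44 on the intermediate and 3.08, 2.95 and 2.54 on the outer arrays. The layers overlapped because the outer replicate 3 sample was lower than 2 intermediate samples. The difference was 0.19 (95% interval -0.31 to 0.70, limma adjusted p = 0.652), a direction that turned with scaling to the median (-0.25).

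Most genes that build, edit or read the chains of these proteoglycans did not pass between the layers either. The 6 lists held 69 genes of the heparan sulfate pathway, each counted by its brightest tested probe, and 56 could be tested. Of these, limma called 1 toward the outer and 3 toward the intermediate interzone and left 52 uncalled. Of all 18001 gene names, which include those without a RefSeq symbol, limma called 3.73%, with 1.44% and 2.28% in these directions. The median of the 56 was -0.13, beside 0.10 for all gene names. In the fit blocked on replicate number, 2 were called toward the outer and 5 toward the intermediate interzone. That fit also called more of all 23881 tested probes, 837 toward the outer and 886 toward the intermediate interzone, against 317 and 515 without the block.

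**Figure D3:**
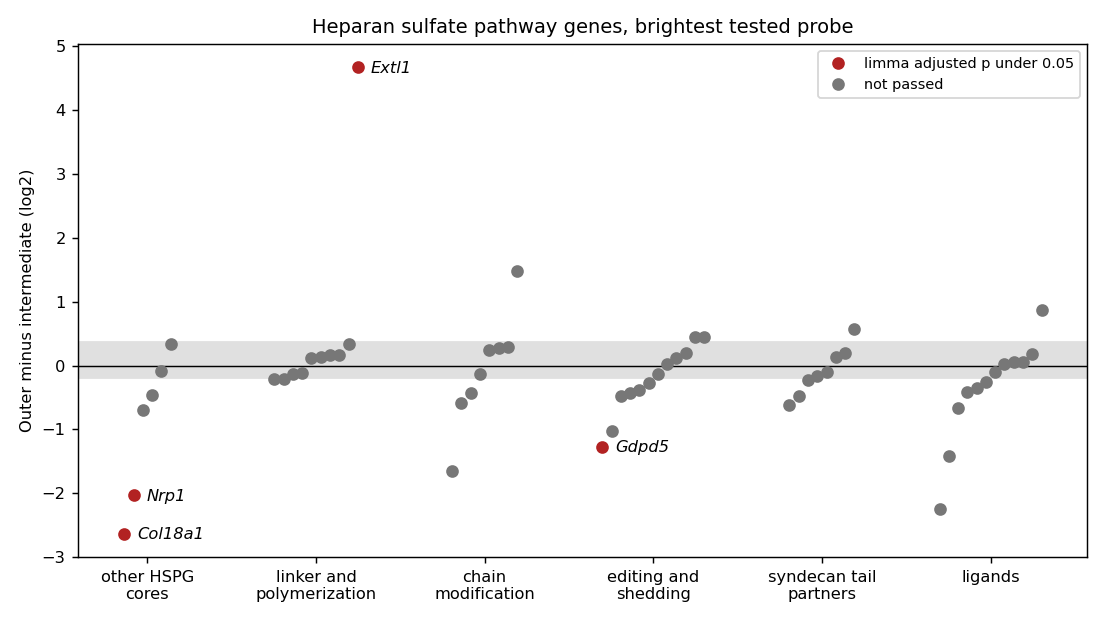
Each point is the outer minus intermediate difference (log2) of a pathway gene by its brightest tested probe, in 6 lists, with the quartiles of all tested probes as a grey band and genes with a limma adjusted p under 0.05 in red. Extl1 is the called gene above 0, and Nrp1, Col18a1 and Gdpd5 are the called genes below it.

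The gene higher in the outer interzone was Extl1, an exostosin-like glucosaminyltransferase gene of heparan sulfate synthesis. It stood at -5.48, -5.59 and -6.59 on the intermediate and -1.13, -0.41 and -2.10 on the outer arrays. No intermediate array measured it well above background and all 3 outer arrays did, so its fold is a lower bound, set against the lowest signal that counted as well above background on each intermediate array. Extl1 was at least 8.11-fold higher in the outer interzone by this bound. The fit itself used the measured means of -1.21 and -5.89 (limma adjusted p = 0.00838), and since the probe entered it through the outer arrays alone, where it is high, that p does not belong to the bound. With normexp background correction, which compresses dim signals, Extl1 differed by 1.06 (limma adjusted p = 0.0242). The other 9 tested genes of the linker and polymerization list did not pass, including Ext1 and Ext2, the polymerase subunits, which both differed by -0.21.

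Other heparan sulfate proteoglycans held 2 of the 3 genes higher in the intermediate interzone. Col18a1, the collagen XVIII of vessel and epithelial basement membranes, stood at 4.18, 4.01 and 4.69 on the intermediate and 0.41, 2.46 and 2.09 on the outer arrays. All outer samples were lower, and outer replicate 1 was the lowest. It was 6.24-fold lower in the outer interzone (-2.64 with SE 0.52, limma adjusted p = 0.0448). Without outer replicate 1 its difference was -2.02 (limma adjusted p = 0.0188). Its second probe differed by -2.77 (limma adjusted p = 0.025). Nrp1, a receptor for VEGF and semaphorins on endothelium and axons that can carry such a chain, stood at 0.00, -0.29 and 0.51 on the intermediate and -2.42, -1.59 and -1.88 on the outer arrays. The layers were well apart, with outer replicate 1 not well above background. The fitted difference was -2.03 (limma adjusted p = 0.019), and -1.80 without that array (limma adjusted p = 0.0274). Nrp1 entered the test through the intermediate arrays alone, where it is high, and was not tested where signal was required on all 6 arrays. The size of its difference and its p-values are therefore uncertain. The tested nerve markers and the endothelial markers other than Kdr moved the same way as Col18a1 and Nrp1, and their part in these results was not tested. The remaining 4 of this list did not pass, among them perlecan (Hspg2, -0.08) and agrin (Agrn, 0.34).

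The third was Gdpd5, from the list on editing and shedding, which encodes an enzyme that cuts GPI anchors and so can release glypicans. It stood at 0.41, 0.75 and 0.87 on the intermediate and -0.95, -0.46 and -0.37 on the outer arrays, with every outer sample below every intermediate sample. The level was 2.42-fold lower in the outer interzone (-1.27 with SE 0.23, limma adjusted p = 0.0338). The other 11 tested genes of the list did not pass. They include Notum, an enzyme first described as a shedder of glypicans (0.44, limma adjusted p = 0.524), and the chain-editing sulfatases Sulf1 (0.12) and Sulf2 (-0.48). The calls of Col18a1, Gdpd5 and Nrp1 each ended when single arrays were left out: without intermediate replicate 3, limma adjusted p was 0.166, 0.147 and 0.081. Extl1 kept its call with any 1 array left out (limma adjusted p 0.0104 to 0.0485). It lost the call without the filter on dim probes (limma adjusted p = 0.157). The refits with 1 array left out cannot test its entry through the outer arrays alone, because its intermediate values stayed near background in each. Like Nrp1, Extl1 was not tested where signal was required on every array.

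None of the genes of the other lists passed. Of 16 chain modification genes 8 could be tested, and Glce, the epimerase of the chain, differed by 0.29 (95% interval -0.18 to 0.75, limma adjusted p = 0.457). All 8 genes of syndecan tail partners were tested, and Cask, a scaffold protein that binds the syndecan C-terminus, differed by -0.17 (limma adjusted p = 0.597). Of 13 ligand genes 12 were tested, and fibronectin (Fn1) differed by -0.41 (95% interval -0.83 to 0.01, limma adjusted p = 0.251). Ihh, a hedgehog ligand that binds these chains, was not well above background in any sample. The list medians were 0.05, -0.14 and -0.18. Larger differences without overlap also fell short: Hs6st2 (1.48, limma adjusted p = 0.107), Ndst3 (-1.65, 0.13), Slit2 (-1.41, 0.103) and Hgf (-2.25, 0.105). Ndst3 and Hgf were tested through the intermediate arrays alone, where they are high. Higher outer values without overlap were found for 2, 1 and 0 genes of the 3 lists, and higher intermediate values for 2, 3 and 4. Over all tested probes, 26.3% did not overlap.

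**Figure D4:**
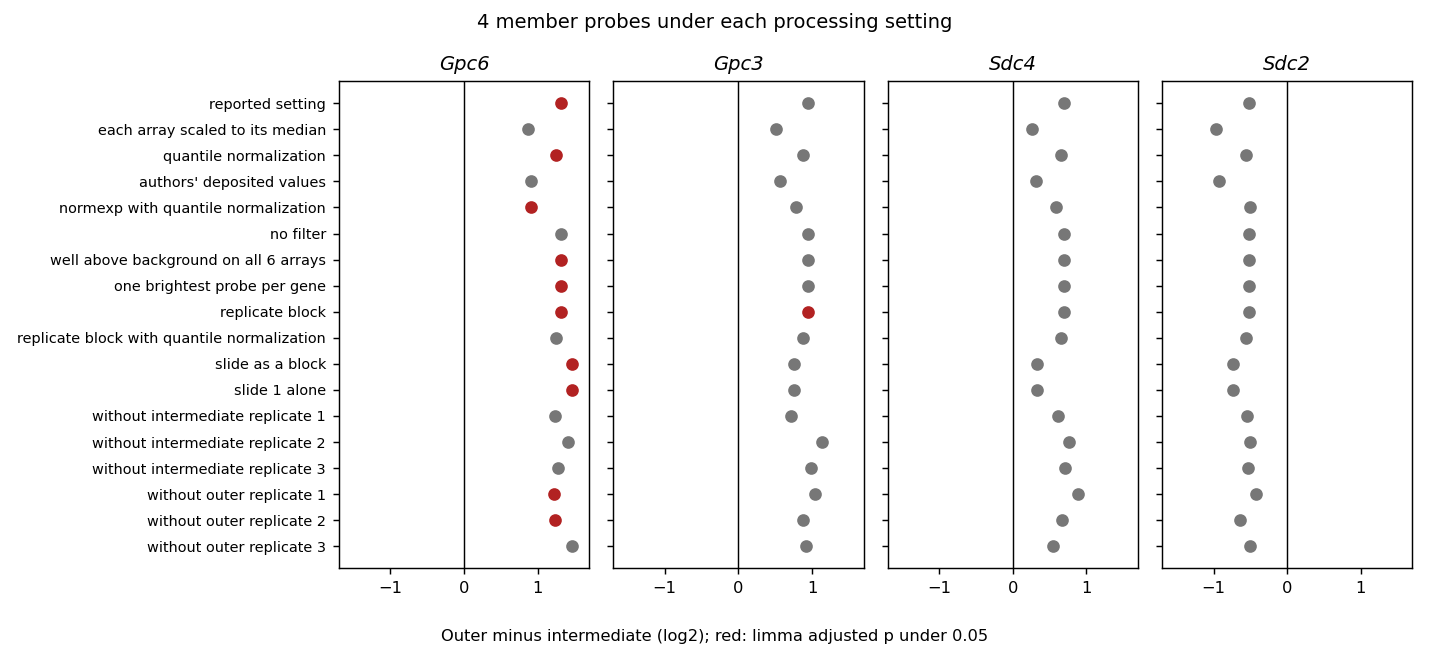
The outer minus intermediate difference (log2) of Gpc6, Gpc3, Sdc4 and Sdc2 under each processing setting, in red where limma adjusted p was under 0.05. The sign of these 4 probes was the same under all settings, from 0.87 to 1.47 for Gpc6, 0.51 to 1.14 for Gpc3, 0.26 to 0.88 for Sdc4 and -0.96 to -0.42 for Sdc2, while the call of Gpc6 came and went.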

How the data were processed

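The deposited scanner files of 6 one-colour arrays come, per the file headers, from version 10.7.3.1 of Agilent Feature Extraction. They give a processed signal intensity per spot, background-subtracted and detrended, with flags; probe positions and names use build mm9. Partek 6.11.0321 also stands in the submitters' processing notes. The authors' deposited table holds the same intensity divided by 1 constant per array (spread at most 0.000117%), with each column median at 1, unlogged and uncentred. Its 6 flag columns were not used.

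Unflagged spots of a probe were averaged as log2, 9 probes without a value were dropped, and each array's 75th percentile was subtracted. RefSeq accessions gave 26762 probes a current symbol (RefSeq table of GRCm38.p6, for names only). The layers were compared probe by probe by two-sided moderated tests in limma 3.58.1 (R 4.3.3), with Benjamini-Hochberg adjustment over all tested probes, checked on simulated data. All adjusted p-values are from these fits. The number of arrays limits the precision.

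The members and lists were chosen with earlier results of these data known. Named genes were all members, up to 6 called genes of each pathway list or its brightest gene where none was called, and the 3 profiles nearest to a called member. Ext1, Ext2, Hspg2, Agrn, Notum, Sulf1, Sulf2, Ihh, Hs6st2, Ndst3, Slit2 and Hgf were named in addition, as were single marker genes.

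The labels do not say that a replicate number marks 1 embryo in both layers. Same-numbered samples correlated at 0.537, 0.477 and 0.358 in their deviations from the group means, and the others at -0.516 to 0.095. The block on replicate number was therefore fitted as a possible pairing. Replicate 1 was also the dimmest array of each layer (75th percentile 144 and 47.4). Whether the correlation reflects a shared embryo was not tested. Outer replicate 1 shared slide 1 with the intermediate arrays, slide 2 had the other outer arrays, and all were scanned on 1 day. The 17 alternatives varied scaling, background correction, filter, unit of the test, blocks and arrays left out.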

Additional observations from a re-analysis of the deposited data

How the results depend on the processing

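Over all tested probes limma called 832, and 1453 with each array scaled to its median, 1360 in the authors' deposited values, 508 with quantile normalization, 526 with signal required on all 6 arrays, 1723 with the replicate block, 49 with that block on quantile-normalized values, 1557 with slide as a block and 1785 within slide 1. Without any filter limma called 0, with 5734 at an unadjusted p under 0.05. Leaving out 1 array gave 75 to 1243. Of the member probes limma called 1, and 2 with the replicate block. It called 0 with scaling to the median, in the deposited values, without a filter and with the block on quantile-normalized values, where 3, 3, 2 and 4 had an unadjusted p under 0.05, and 0 to 1 with 1 array left out. Of the pathway genes limma called 4, and 9 with scaling to the median, 7 in the deposited values, 2 with signal on all 6 arrays, 7 with the replicate block, 1 with that block on quantile-normalized values and 9 within slide 1. Without a filter it called 0, with 11 at an unadjusted p under 0.05, and with 1 array left out it called 1 to 6. Added to the reported setting, the block changed no other member's call than that of Gpc3, and added to quantile-normalized values it ended that of Gpc6 (limma adjusted p 0.0409 without and 0.0755 with the block). The cause of these changes was not tested.

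The probes that changed sign were these, none of them called under any setting. With scaling to the median Gpc1, Sdc3 and Gpc5 differed by -0.24, -0.25 and -0.35, and in the deposited values by -0.19, -0.20 and -0.30. With slide as a block or within slide 1, which both rest on the dim outer replicate 1, Gpc1 differed by -0.17 and Gpc5 by -0.53. Gpc5 differed by -0.60 with quantile normalization, with or without the replicate block, and by -0.05 with normexp. With 1 array left out, Gpc5 ranged from -0.22 to 0.40, the second Gpc4 probe from -0.38 to 0.08 and Sdc1 from -0.26 to 0.02. Gpc2, the second Gpc4 probe and Gpc5 were near background, which limits their differences.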
